A study of Mus musculus with 12 samples.

Results

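The autophagy and lysosome genes described here are 36 genes, picked by symbol from the 35976 gene rows of each count file, and all 36 were found. They fall into 5 roles: 14 lysosomal membrane proteins, enzymes and cofactors, 3 transcription factors of lysosomal genes, 6 genes of the cargo receptor and the ATG8 family, 6 of initiation, nucleation and membrane supply, and 7 of the conjugation machinery. They were measured by 3′ tag RNA sequencing in 12 libraries of mouse haematopoietic stem cells (HSCs), a lineage-negative fraction sorted for c-Kit and Sca-1, in 6 groups of 2. Wild-type (WT) cells and cells labelled knockout (KO) for Cd38, a membrane enzyme that consumes NAD, were each taken fresh from mice aged 2 months (young), after 24 hours of cytokine stimulation outside the body (young stimulated), and fresh from mice aged 24 months (old). WT libraries carry replicate numbers 1 and 2 and KO libraries 3 and 4. The labels name neither the cytokines nor the deleted part of Cd38, and they do not tie libraries to separate mice, so a p-value here covers only sample-to-sample spread, which may be technical.

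Autophagy wraps cytoplasm, aggregates or whole mitochondria in a double membrane, the autophagosome, and delivers them to the lysosome, where acid hydrolases break them down. Small ATG8 proteins (the LC3 and GABARAP families) are coupled to lipid on the growing membrane by a conjugation machinery related to that of ubiquitin. The transcription factors TFEB, TFE3 and MITF bind E-box motifs in promoters of lysosomal genes and move to the nucleus when mTORC1, a nutrient-sensing kinase on the lysosome, is off. In HSCs autophagy is known for clearing active mitochondria and keeping cells quiescent, and lysosomal activity is known to change when HSCs leave quiescence.

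The promoters of the genes were compared by short motifs. RefSeq promoters (GRCm38.p6) matched 30 of the 36 genes; the others were Atg12, Atg16l1, Becn1, Ctsb, Map1lc3a and Npc1. Within 250 bases before the start, the E-box core CACGTG, which reads the same on both strands, lay in 7 of the 30 (23.3%), against 6.86% of all 27025 genes with such a promoter. The 7 were Lamp1, Ctsa, Ctsd, Ctsl, Atg3, Atg5 and Atg7. Its form with flanking bases, TCACGTGA, lay in 3 (10%), namely Ctsa, Ctsd and Atg3, against 0.907% of all genes, and each such match is also a CACGTG match. The form that adds G before and C after it lay in 0 of 30, against 0.27% of all genes. GGGCGG, the GC box, searched on both strands, lay in 21 (70%) against 35.4%, and CCAAT, also on both strands, in 10 (33.3%) against 37.5%. The shares over all genes include genes not expressed in these cells, and no comparison with expressed genes was made, so they do not set these genes apart from expressed genes. These windows are shown because they hold E-boxes of the lysosomal membrane gene Lamp1, which has 4 in all, of cathepsin D and of the conjugating enzyme Atg3, with CACGTG in capitals:
Lamp1, chr8:13159088-13159117 (+): agggcaagatatCACGTGgtccagcgccca
Lamp1, chr8:13159121-13159150 (+): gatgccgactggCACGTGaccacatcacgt
Ctsd, chr7:142387908-142387937 (-): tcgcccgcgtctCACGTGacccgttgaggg
Atg3, chr16:45158746-45158775 (+): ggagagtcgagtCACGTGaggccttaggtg

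Npc2, Grn, Hexa and Gabarapl1, the members called by edgeR's test on all libraries of a comparison below, had no CACGTG in this window. Ctsl and Atg3, which had it, were called with stimulation by DESeq2 and with certain libraries left out. The 250 bases before the start of Npc2, Grn and Hexa, called with stimulation, and of Gabarapl1, called between genotypes, are given 5′ to 3′ with GC boxes (GGGCGG or CCGCCC) and CCAAT boxes (CCAAT or ATTGG) in capitals:
Npc2, chr12:84773113-84773362 (-): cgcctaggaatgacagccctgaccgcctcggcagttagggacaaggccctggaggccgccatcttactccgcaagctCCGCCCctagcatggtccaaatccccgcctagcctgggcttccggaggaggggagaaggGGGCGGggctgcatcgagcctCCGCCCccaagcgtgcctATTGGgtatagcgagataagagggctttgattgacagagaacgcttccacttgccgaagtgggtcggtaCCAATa
Grn, chr11:102430257-102430506 (+): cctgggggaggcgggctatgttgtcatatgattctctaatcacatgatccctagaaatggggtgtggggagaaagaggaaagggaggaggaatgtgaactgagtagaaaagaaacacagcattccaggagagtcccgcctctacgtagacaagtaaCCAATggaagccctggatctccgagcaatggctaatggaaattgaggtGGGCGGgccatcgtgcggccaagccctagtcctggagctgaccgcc
Hexa, chr9:59539290-59539539 (+): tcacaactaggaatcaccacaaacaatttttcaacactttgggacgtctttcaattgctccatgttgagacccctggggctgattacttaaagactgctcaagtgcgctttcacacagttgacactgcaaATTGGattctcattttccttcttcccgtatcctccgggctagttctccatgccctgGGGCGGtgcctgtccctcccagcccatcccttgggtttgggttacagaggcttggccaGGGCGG
Gabarapl1, chr6:129532942-129533191 (+): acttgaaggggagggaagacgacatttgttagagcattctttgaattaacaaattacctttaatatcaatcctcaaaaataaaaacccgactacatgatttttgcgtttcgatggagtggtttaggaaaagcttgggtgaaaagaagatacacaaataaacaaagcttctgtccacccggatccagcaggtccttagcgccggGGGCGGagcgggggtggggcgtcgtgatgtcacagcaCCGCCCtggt
Each of the 4 held a GC box, and Npc2, Grn and Hexa also held a CCAAT box. A match is a run of letters and not a measured binding site.

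Total counts were 1600155 to 1963635 in young fresh, 2692245 to 3249721 in stimulated and 3796591 to 5164720 in old libraries, so age and stimulation both went with depth. Levels are CPM, counts scaled to a library's total as adjusted by TMM. They are tags, not scaled by transcript length, and are compared between libraries and not between genes. HSC markers summed to 1968 to 2158 CPM in young fresh, 1560 to 1616 CPM in stimulated and 1285 to 2040 CPM in old libraries. Among them, young fresh and stimulated libraries had Hlf at 787 to 984 and 334 to 530 CPM, whereas Cd34 had 339 to 437 and 371 to 841 CPM. Monocyte and macrophage markers, 10 genes, summed to 26.7 to 157 CPM in young fresh, 186 to 300 CPM in stimulated and 37.7 to 74.5 CPM in old libraries, with Csf1r at 0 in every fresh library. Within that list Fcgr3, Ccr2 and Mpeg1 were highest in stimulated libraries, whereas Lyz2 had 4.19 to 106 CPM in young fresh and 20.3 to 37.4 CPM in stimulated libraries, and C1qa 0 to 37.8 and 4.31 to 11 CPM. Mast cell and basophil markers summed to 0 to 14.7, 36.1 to 81.2 and 0 to 24.0 CPM in the same order. T and NK markers summed to 13.7 to 34.7, 93.7 to 228 and 0 to 48.8 CPM, nearly all of it Nkg7, with Cd3e at 0 throughout. Neutrophil and granule markers summed to 5094 to 9667, 2266 to 3983 and 424 to 3284 CPM, and within them young fresh and stimulated libraries had S100a8 at 2534 to 5682 and 524 to 990 CPM, and Elane at 17.3 to 35.1 and 326 to 615 CPM. Megakaryocyte and platelet markers summed to 267 to 591, 145 to 491 and 358 to 2324 CPM. In 1 library, young fresh WT replicate 1, Xist had 0 counts and Y-linked genes summed to 200 CPM, whereas the others had Xist at 198 CPM or more. Lamp2, Tfe3 and Atg4a lie on the X chromosome. Cd38 was counted in KO libraries at 2.32 to 62.8 CPM and in WT libraries at 0.998 to 74.4 CPM. A tag at the 3′ end may lie outside the deleted part, so this does not check the labels.

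The replicates of the stimulated groups lay far closer together than those of the fresh groups for these genes, as they did over all genes. Among members with a group mean of at least 20 CPM, the median ratio of the higher to the lower library, on CPM + 2, was 1.11 and 1.18 in stimulated WT and KO. For young fresh cells it was 1.52 (WT) and 1.69 (KO), and for old cells 1.94 (WT) and 1.32 (KO). No member differed over 2-fold between replicates in either stimulated group, against 0.933% (WT) and 1.26% (KO) of all genes at that level. In young fresh cells 6 of 25 did in WT (24%, against 34.8% of genes) and 8 of 25 in KO (32%, against 40.4%). In old cells 11 of 25 did in WT (44%, against 34.3%) and 5 of 22 in KO (22.7%, against 31.1%). The widest was Ctss, a cathepsin of antigen-presenting cells, with 119 CPM in old WT replicate 1 and 0 in replicate 2. Members at 0 counts numbered 2 to 5 per young fresh library, 0 in every stimulated library and 2 to 4 per old library. Because of this gap, age and the fresh genotype differences were tested on the 8 fresh libraries, and the genotype difference of stimulated cells on those 4 libraries. Stimulation was tested on the 8 young libraries, so the gap remains inside that test. The common dispersion of edgeR, a measure of spread, was 0.436 in that fit and 0.033 in the stimulated libraries alone. The SEs and p-values for stimulation rest on this pooling, whereas limma voom was run with a weight per group. A gene was called at a Benjamini-Hochberg adjusted p under 0.05, taken over all genes tested, from edgeR's quasi-likelihood test.

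**Figure D1:**
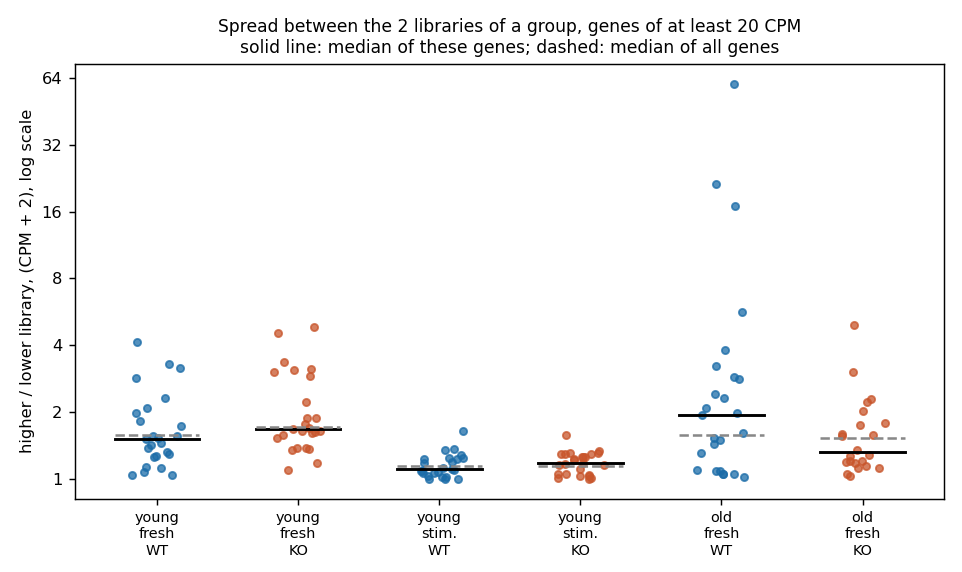
Ratio of the higher to the lower replicate (CPM + 2, log axis) of each autophagy or lysosome gene of at least 20 CPM (points) in each of the 6 groups, with the median of these genes (solid line) and of all genes (dashed). Points of the stimulated groups lie below 2, and the old WT group reaches 60.3 at Ctss.

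**Figure D2:**
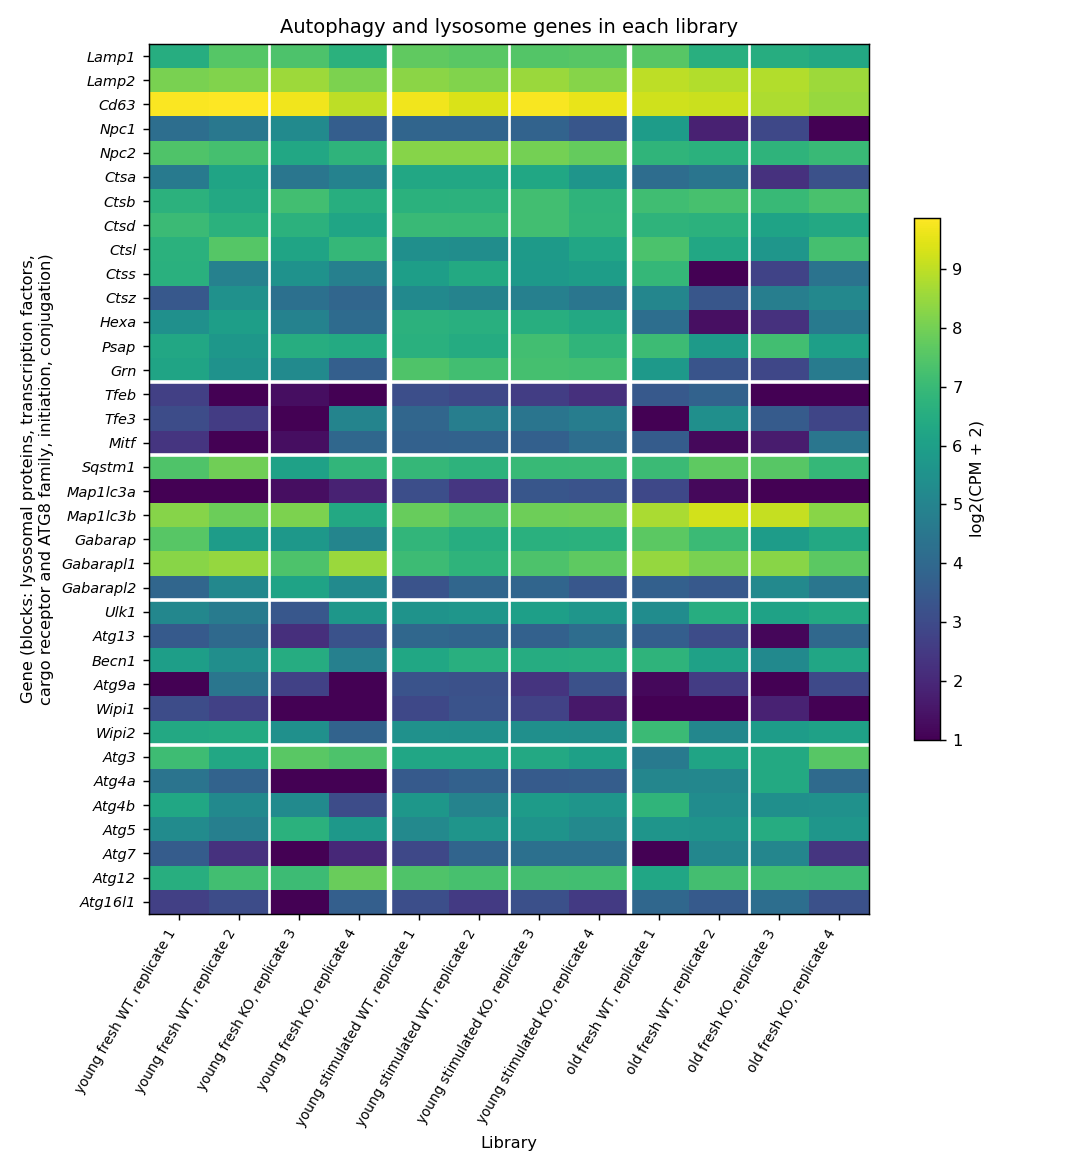
Level of each of the 36 genes (rows, in blocks by role) in each of the 12 libraries (columns) as log2(CPM + 2), the colour scale. Adjacent stimulated columns look alike, while fresh columns of one group differ, and Cd63, at 358 to 932 CPM, is bright in every column.

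Stimulation was compared with fresh cells in young mice to ask how 24 hours of cytokines in culture alters these genes, with both genotypes given equal weight. No library of cells cultured without cytokines was analysed here, so culture and cytokines cannot be told apart. Npc2, Grn and Hexa, all of them genes of the lysosomal lumen, were called higher by edgeR on all 8 libraries, and no member was called lower. That is 3 of 36 called higher, where 1.87% of the 10786 genes tested were called higher, and 0 of 36 called lower, where 1.73% were. Of the members, 11 had an unadjusted p under 0.05 (30.6%, against 23.7% of all genes), 7 upward and 4 downward. DESeq2 called 5 higher and 4 lower, where it called 14% of all genes in either direction, and limma voom 2 higher and 1 lower, where it called 6.17%. The median log2 difference over the 36 was 0.44, against 0.21 over all genes, and 26 of 36 were above 0, against 58.8% of all genes. As these are bulk libraries, fewer cells of a type and less RNA per cell cannot be told apart.

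Npc2 encodes the soluble protein that hands cholesterol to the lysosomal membrane. Its level was 171 and 152 CPM in young fresh WT, 78.1 and 107 CPM in young fresh KO, 303 and 302 CPM in stimulated WT, and 255 and 218 CPM in stimulated KO. Every stimulated library lay above every fresh one, including the old libraries at 110, 100, 107 and 126 CPM. The log2 difference was 1.13 ± 0.18 (SE; edgeR quasi-likelihood adjusted p = 0.016). Grn encodes progranulin, a secreted and lysosomal precursor of granulins. It stood at 70.2 and 44.0 CPM in young fresh WT, 35.7 and 11 CPM in young fresh KO, 171 and 142 CPM in stimulated WT, and 150 and 142 CPM in stimulated KO. The lowest stimulated library lay above the highest fresh one, and old libraries had 53.4, 7.81, 5.33 and 24.0 CPM. The log2 difference was 2.04 ± 0.38 (edgeR quasi-likelihood adjusted p = 0.0312). Hexa encodes the alpha subunit of hexosaminidase, which degrades gangliosides. It had 42.0 and 60.5 CPM in young fresh WT, 28.6 and 15.2 CPM in young fresh KO, 101 and 95.4 CPM in stimulated WT, and 93.3 and 80.5 CPM in stimulated KO. Again no fresh library reached a stimulated one, and the old libraries were at 16.5, 0.600, 2.78 and 22.5 CPM. The log2 difference was 1.46 ± 0.32 (edgeR quasi-likelihood adjusted p = 0.0492).

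These 3 genes were the members whose 4 stimulated libraries all lay above all 8 fresh libraries (8.33%, against 5.15% of all genes), and none lay below (against 2% of genes). Against the 4 young fresh libraries alone, Map1lc3a joined them, giving 4 of 36 higher (11.1%, against 13.9% of genes) and 0 lower (against 5.52%). Leaving out any 1 stimulated library ended the 3 calls, with Npc2 at an edgeR adjusted p of 0.0964, 0.0965, 0.116 and 0.0807 without WT replicates 1 and 2 and KO replicates 3 and 4, while its log2 difference stayed at 1.08 to 1.2. In those fits Grn was at 0.102 to 0.146 and Hexa at 0.221 to 0.287, and 60 to 75 genes in all were called, against 389 with all 8 libraries. Without young fresh WT replicate 1, the library with Y-linked counts, Npc2 had an adjusted p of 0.0362, Grn of 0.0559 and Hexa of 0.0657. Without young fresh WT replicate 2 they were 0.0408, 0.0665 and 0.0552. The monocyte, mast cell and T and NK marker sums given above were higher in every stimulated than in every fresh library. The neutrophil and HSC sums were lower in every stimulated than in every young fresh library. The part of all these sums in the differences of the 3 genes was not tested.

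**Figure D3:**
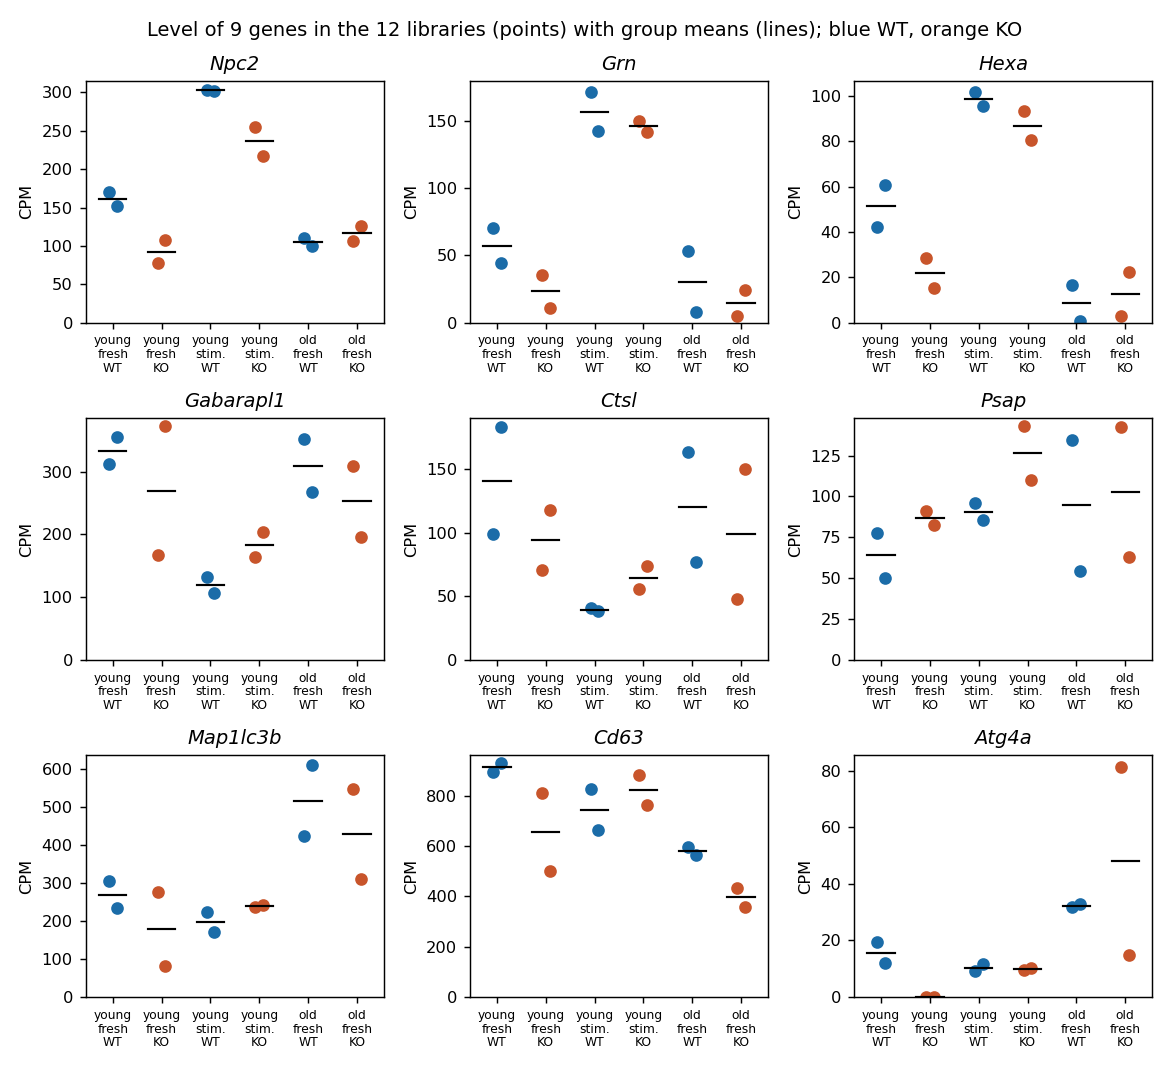
CPM of 9 genes in each of the 12 libraries (points; blue WT, orange KO) with the group means (lines). Npc2, Grn and Hexa have every stimulated point above every fresh point, and Atg4a is at 0 in both young fresh KO libraries.

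The other lysosomal genes gave no call with stimulation by edgeR on all 8 libraries. Ctsl, cathepsin L, had 99.1, 183, 70.4 and 118 CPM in the young fresh libraries and 40.9, 38.3, 55.5 and 73.9 CPM in the stimulated ones, a log2 difference of -1.18 ± 0.31 (edgeR adjusted p = 0.0674). Only the highest stimulated library passed the lowest fresh one, and Ctsl was called lower without young fresh KO replicate 3 (edgeR adjusted p = 0.0355) and by DESeq2 (0.00375). Ctsa, the protective cathepsin A, had a mean of 69.8 CPM stimulated and 35.5 CPM fresh (log2 1.04 ± 0.43, edgeR adjusted p = 0.189). The structural membrane glycoproteins Lamp1 and Lamp2 had log2 differences of 0.51 ± 0.27 and 0.08 ± 0.16. The tetraspanin gene Cd63 had means of 783 CPM stimulated and 785 CPM fresh. The remaining cathepsin genes Ctsb, Ctsd, Ctss and Ctsz and the saposin precursor Psap had log2 differences of 0.11 to 0.52. Npc1, the membrane partner of Npc2 in cholesterol export, had means of 11.6 CPM stimulated and 21.1 CPM fresh (log2 -0.86 ± 0.71). Of the 14 lysosomal genes, 12 had a log2 difference above 0, against 58.8% of all genes, and 3 were called higher, against 1.87% of all genes.

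Tfeb, Tfe3 and Mitf were counted at low levels and none was called. Tfeb had 4.39, 0, 0.510 and 0 CPM in young fresh libraries and 6.65, 5.61, 4.14 and 2.65 CPM in stimulated ones (log2 2.48 ± 1.30, edgeR adjusted p = 0.296). Tfe3 had 6.27, 4.00, 0 and 29.8 CPM in young fresh libraries and 13.3, 25.8, 19.6 and 25.2 CPM in stimulated ones (log2 1.25 ± 1.21, edgeR adjusted p = 0.575). Mitf had 3.14, 0, 0.510 and 13.6 CPM in young fresh libraries and 11.6, 11.9, 11.3 and 16.6 CPM in stimulated ones (log2 1.93 ± 1.29, edgeR adjusted p = 0.411). Stimulated and fresh libraries overlapped for each of the 3, since 1 fresh library was within or above the stimulated range. Without young fresh KO replicate 4, where Tfe3 was at 29.8 CPM, Tfe3 had a log2 difference of 5.39 (edgeR adjusted p = 0.024) and was called higher. In old libraries Tfeb had 9.03 and 11.7 CPM in WT and 0 in both KO libraries, Tfe3 had 0, 40.5, 9.73 and 5.17 CPM, and Mitf had 9.83, 0.300, 1.16 and 20.3 CPM.

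Members of the ATG8 family differed in direction. Gabarapl1, a GABARAP-like ATG8 gene, had 312 and 355 CPM in young fresh WT, 167 and 372 CPM in young fresh KO, 132 and 107 CPM in stimulated WT, and 164 and 203 CPM in stimulated KO. Its stimulated libraries were low except that KO replicate 4 passed the lowest fresh library, and the log2 difference was -1.01 ± 0.26 (edgeR adjusted p = 0.0657). It was called lower by DESeq2 (adjusted p = 0.0029), by limma voom (0.016), and by edgeR without young fresh KO replicate 3 (0.0138) or 4 (0.0435). Gabarapl2 had means of 10.6 CPM stimulated and 37.7 CPM fresh (log2 -1.71 ± 0.60, edgeR adjusted p = 0.137), and DESeq2 called it lower (adjusted p = 0.0165). Gabarap and Map1lc3b, the gene of the widely used autophagosome marker LC3B, had log2 differences of 0.48 ± 0.39 and -0.01 ± 0.35. Map1lc3a, the LC3A gene, had 0 counts in both young fresh WT libraries, 0.510 and 1.57 CPM in young fresh KO, 6.65 and 3.30 CPM in stimulated WT, and 8.28 and 7.62 CPM in stimulated KO. In WT it was at least 5.54-fold higher after stimulation, taking 3 counts over the fresh group as the floor, which covers counting error only (edgeR adjusted p over both genotypes = 0.0735). DESeq2 called Map1lc3a higher over both genotypes (adjusted p = 0.0292). Sqstm1, which encodes the cargo receptor p62, had 169, 247, 65.3 and 112 CPM in young fresh libraries and 118, 104, 125 and 127 CPM in stimulated ones, which lay inside the fresh range (log2 -0.20 ± 0.24, edgeR adjusted p = 0.662).

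Of the genes that start an autophagosome, none was called with stimulation. Ulk1, the initiating kinase, had means of 51.1 CPM stimulated and 28.8 CPM fresh (log2 0.82 ± 0.55), and its partner Atg13 means of 13.4 and 8.39 CPM. Becn1, the Beclin 1 subunit of the lipid kinase complex, had 87.3 and 53.9 CPM (log2 0.70 ± 0.40). The lipid-binding Wipi2 had 41.5 and 53.9 CPM. Wipi1 and the lipid scramblase gene Atg9a stayed under 10 CPM in every stimulated library. In the conjugation machinery, Atg3, the E2-like enzyme that passes ATG8 proteins to lipid, had 136, 77.7, 194 and 164 CPM in young fresh libraries and 73.9, 74.3, 80.3 and 63.3 CPM in stimulated ones. The difference was -0.92 ± 0.25 on the log2 scale (edgeR adjusted p = 0.0753), and the groups overlapped by 1 library on each side. Without young fresh WT replicate 2 it was called lower (edgeR adjusted p = 0.0416), as it was by DESeq2 (0.00615). Atg7, the E1-like enzyme, had means of 13.2 and 3.75 CPM (log2 2.24 ± 1.13, adjusted p = 0.278). Atg5, Atg12, Atg16l1 and the protease gene Atg4b had log2 differences of -0.28 to 0.41, each smaller than its SE. Atg4a, a further protease gene with 0 counts in both young fresh KO libraries, was called higher by DESeq2 (adjusted p = 0.0286) but not by edgeR.

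**Figure D4:**
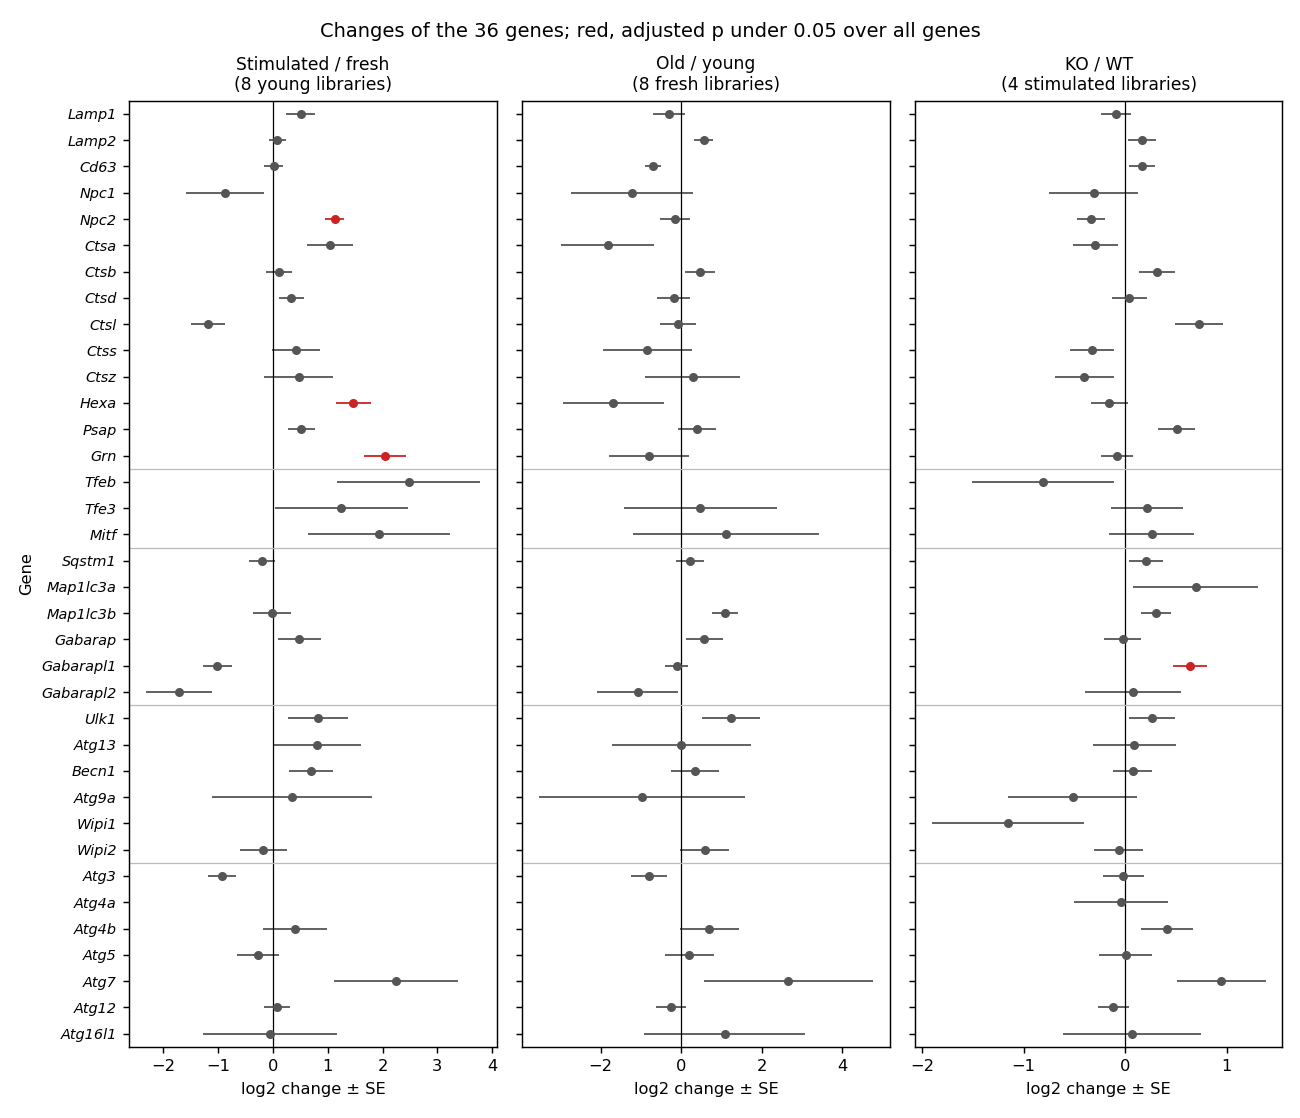
Log2 difference ± SE of each gene (rows) for stimulated against fresh (left), old against young (middle) and KO against WT in stimulated cells (right), each panel with its own axis. Red points are called (Npc2, Hexa and Grn on the left, Gabarapl1 on the right), and genes with 0 counts in a whole group of a panel, or not tested there, have no point.

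Genotype was compared in stimulated cells, where replicates were closest. Gabarapl1 was the single member called, 1 of 36 higher in KO, where 1.01% of 10494 genes were called higher, and 0 of 36 were lower, where 0.6% were (1.61% in either direction). Its 164 and 203 CPM in KO lay above 132 and 107 CPM in WT, a log2 difference of 0.64 ± 0.16 (edgeR quasi-likelihood adjusted p = 0.0423). The call was lost without stimulated WT replicate 2 (log2 0.50, adjusted p = 0.345) and without stimulated KO replicate 4 (0.47, 0.444). It was also lost by DESeq2 (adjusted p = 0.147; 0.986% of genes called), by limma voom (0.0598; 1.97% called) and in a fit of all 12 libraries (1). In fresh cells Gabarapl1 did not share this order, since young fresh KO had 167 and 372 CPM around the WT values of 312 and 355 CPM, and old KO had 310 and 196 CPM against 352 and 268 CPM in WT. Ctsl had 55.5 and 73.9 CPM in stimulated KO against 40.9 and 38.3 CPM in WT (log2 0.73 ± 0.23, edgeR adjusted p = 0.135). Psap, whose product is cut into the activators of sphingolipid hydrolases, had 143 and 110 CPM against 95.8 and 85.5 CPM (log2 0.51 ± 0.18, edgeR adjusted p = 0.2). In both genes the KO libraries lay above the WT libraries, and Ctsl was called without stimulated KO replicate 3 (edgeR adjusted p = 0.0373). Npc2 was below WT in both KO libraries (log2 -0.33 ± 0.14, edgeR adjusted p = 0.327). In all, 5 of 36 members had an unadjusted p under 0.05 (13.9%, against 11.1% of genes), 4 upward and 1 downward, DESeq2 and limma voom called 0 lower, and the median log2 difference was 0.06 against -0.00 over all genes. Of the 36, 20 were above 0, against 50% of genes. The KO libraries did not overlap the WT libraries for 8 members above (22.2%, against 19.5% of genes) and 11 below (30.6%, against 22.6%). Among cell type markers, Pf4 had 376 and 423 CPM in stimulated KO and 202 and 109 CPM in stimulated WT. Cd34 had 564 and 371 CPM in stimulated KO and 841 and 795 CPM in stimulated WT. The part of such markers was not tested.

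In fresh cells no member was called between genotypes by edgeR's quasi-likelihood test. In young fresh cells 0 of 35 tested members passed (0.00936% of 10680 genes did), 3 had an unadjusted p under 0.05 (8.57%, against 4.85% of genes), DESeq2 called 0 higher and 1 lower (Atg4a, adjusted p = 0.0344; 0.798% of genes), and limma voom called 0 (0% of genes). Map1lc3a was too low to be tested in fresh cells. Values in KO were more often the lower ones. The median log2 difference was -0.59, against -0.03 over all genes, and 13 of 35 were above 0, against 46.8% of genes. The KO libraries lay below the WT libraries for 11 of 35 members (31.4%, against 17.3% of genes) and above for 4 (11.4%, against 14.7%). The 11 were Cd63, Npc2, Hexa, Grn, Sqstm1, Gabarap, Atg13, Wipi1, Wipi2, Atg4a and Atg7, and the 4 were Psap, Gabarapl2, Atg3 and Atg5. Counts of this kind over genes measured in the same 4 libraries are not independent, so they are given as a description.

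Atg4a, an X-linked protease that trims ATG8 proteins, had 19.4 and 12 CPM in young fresh WT and 0 in both KO libraries, 52 counts against 0. It was at least 20.1-fold lower in KO at a floor of 3 counts over the group, which covers counting error only and not replicate spread. Its edgeR adjusted p was 0.745. In stimulated cells it had 9.32, 11.6, 9.66 and 10.3 CPM, with no gap between genotypes, and in old cells 31.9 and 32.7 CPM in WT and 81.3 and 14.9 CPM in KO. Sqstm1 had 169 and 247 CPM in young fresh WT and 65.3 and 112 CPM in KO (log2 -1.24 ± 0.50, edgeR adjusted p = 0.943). Gabarap had 187 and 57.7 CPM in WT and 51.5 and 30.9 CPM in KO (log2 -1.58 ± 0.66, edgeR adjusted p = 0.943). Both genes were lower in each KO library than in either WT library, but the WT replicates of Gabarap themselves differed 3.16-fold on CPM + 2.

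In old fresh cells 0 of 35 members passed between genotypes (0% of 10680 genes did by edgeR), 1 had an unadjusted p under 0.05 (2.86%, against 3.98% of genes), and DESeq2 and limma voom called 0 (0.609% and 0.0173% of genes). Atg3 had 81.6 and 189 CPM in KO and 23.4 and 71.1 CPM in WT (log2 1.53 ± 0.63, edgeR adjusted p = 1). Gabarap had 58.4 and 79.9 CPM in KO and 198 and 131 CPM in WT (log2 -1.24 ± 0.65, edgeR adjusted p = 1). Cd63 had 435 and 358 CPM in KO and 596 and 565 CPM in WT (log2 -0.54 ± 0.29, edgeR adjusted p = 1). None of the 3 overlapped between genotypes, and each had the same order, without overlap, in young fresh cells. The share of all genes with the same order at both ages was not taken, and none of the 3 was called at either age. Their shared order is therefore a description only. Tfeb had 73 counts over the old WT libraries and 0 over the KO libraries, at least 31.4-fold lower in KO at the floor of 3 counts (edgeR adjusted p = 1). This bound covers counting error only and not replicate spread, and Tfe3 had 0 and 135 counts in the old WT replicates. Of the 35, 15 had a log2 difference above 0, against 50% of genes. The KO libraries lay above the WT libraries for 3 members (8.57%, against 16.5% of genes) and below for 7 (20%, against 16.7%). Of the platelet markers, Pf4 had 2078 and 1232 CPM in old KO and 491 and 293 CPM in old WT, and Itga2b 207 and 149 against 22.6 and 64.2 CPM. Gp9 and Gp1bb overlapped between the genotypes, and the part of these markers was not tested.

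Age was compared in fresh cells, with both genotypes given equal weight. The old libraries were deeper, and their neutrophil and granule marker sum lay below that of every young library. In old KO the megakaryocyte and platelet sum reached 2324 CPM, against 591 CPM at most in young libraries. Its gene Pf4 had 2078 and 1232 CPM in old KO, whereas old WT, at 491 and 293 CPM, lay within the young range of 164 to 557 CPM. The part of these in the values below was not tested. No member was called: 0 of 35 passed edgeR's quasi-likelihood test, where 2.87% of 10680 genes did (1.82% higher and 1.06% lower), and 4 had an unadjusted p under 0.05 (11.4%, against 13.4% of genes). DESeq2 called 1 higher (Atg4a, adjusted p = 0.00167) and 1 lower (Cd63, 0.0178), where it called 6.22% of genes, and limma voom called 0, where it called 2.2%. The median log2 difference was 0.00, against 0.05 over all genes, and 18 of 35 were above 0, against 51.8% of genes. With members at 0 in a whole group put at the floor, their median was 0.20, a value not taken over all genes.

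Map1lc3b had 304, 235, 277 and 80.6 CPM in young fresh libraries and 424, 609, 548 and 311 CPM in old ones. All 4 old libraries lay above all 4 young ones, and the log2 difference was 1.09 ± 0.32 (edgeR quasi-likelihood adjusted p = 0.0751). It was called in 6 of the 8 fits that leave out 1 library, at edgeR adjusted p = 7.85e-06 without young fresh KO replicate 3, but not without young fresh KO replicate 4 (0.102) or old KO replicate 3 (0.138). Cd63 had 895, 932, 812 and 500 CPM in young fresh libraries and 596, 565, 435 and 358 CPM in old ones (log2 -0.70 ± 0.21, edgeR adjusted p = 0.0772). Young fresh KO replicate 4 overlapped the old range, and without it Cd63 was called lower (log2 -0.85, adjusted p = 0.011). Atg4a had 19.4, 12, 0 and 0 CPM in young libraries and 31.9, 32.7, 81.3 and 14.9 CPM in old ones, so that old KO replicate 4 overlapped the young WT range. In KO it was at least 59.6-fold higher in old cells at the floor of 3 counts over the young group, which covers counting error only and not replicate spread. Its edgeR adjusted p over both genotypes was 0.0639. It was called without old WT replicate 1 (0.0414), old WT replicate 2 (0.0383) or old KO replicate 4 (0.0197).

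Map1lc3b was the 1 member whose old libraries all lay above the young ones (2.86%, against 4.83% of genes), and Ctsa the 1 whose old libraries all lay below (2.86%, against 3.6%). Ctsa had 23.2, 70.3, 20.4 and 28.3 CPM in young and 16.2, 19.8, 2.78 and 7.24 CPM in old libraries (log2 -1.83 ± 1.16, edgeR adjusted p = 0.543). Lamp2 had means of 450 CPM in old and 304 CPM in young libraries (log2 0.56 ± 0.23, edgeR adjusted p = 0.279). Hexa, Grn and Npc1, with means of 10.6, 22.6 and 16.1 CPM in old libraries, had old WT replicates far apart, at 16.5 and 0.600 CPM for Hexa, 53.4 and 7.81 CPM for Grn and 57.4 and 1.5 CPM for Npc1. In the lysosomal role 4 of 14 genes had a log2 difference above 0, and in the conjugation role 5 of 7, against 51.8% of all genes.

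Whether the response to stimulation or age depends on genotype was tested as an interaction. For stimulation 0 of 36 members passed edgeR's test (0% of 10786 genes did) and 2 had an unadjusted p under 0.05, against 8.85% of genes. DESeq2 called 1 higher (Atg4a, adjusted p = 0.0233; 2.54% of genes) and limma voom called 0 (0% of genes). Of members with a mean of at least 5 CPM, those nearest to a call were Atg4a (edgeR adjusted p = 0.461), Sqstm1 with an interaction of 1.44 ± 0.48 on the log2 scale (0.475) and Ctsl with 1.32 ± 0.61 (0.566). Sqstm1 was lower in stimulated than in fresh WT libraries, at 118 and 104 against 169 and 247 CPM, and in KO at 125 and 127 against 65.3 and 112 CPM it was higher. For age 0 of 35 members passed (0% of 10680 genes did), 1 had an unadjusted p under 0.05, against 5.69% of genes, and DESeq2 and limma voom called 0 (0.373% and 0% of genes). Of members with a mean of at least 5 CPM, Atg4a, Sqstm1 and Npc2 were nearest to a call for age. The smallest edgeR adjusted p of any member there was 0.862.

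A score over the 36 genes, the mean of log2(CPM + 2), describes the groups together, with no test since the genes were chosen with earlier results known. Young fresh libraries scored 5.40 and 5.36 (WT) and 4.93 and 4.89 (KO). Stimulated libraries scored 5.63 and 5.61 (WT) and 5.71 and 5.58 (KO), and old libraries 5.50 and 5.06 (WT) and 5.01 and 5.15 (KO). All 4 stimulated libraries were above all 8 fresh ones, and the mean over stimulated libraries was 0.48 above young fresh, against a standard deviation of 0.14 within groups. The same mean over 11548 genes was 0.40 above young fresh, and 13163 to 13450 genes were detected in stimulated against 9116 to 9993 in young fresh libraries. With an offset of 0.5 or 10 CPM in place of 2, the difference of the 36 genes was 0.69 or 0.27. The old mean was 0.03 above the young fresh mean, against 0.07 over the 11548 genes. Young fresh KO libraries were the lowest, and the gap to WT was widest in the role of initiation, at 3.55 and 3.27 in KO against 4.16 and 4.62 in WT. The score gives each gene equal weight, so low genes that are at 0 in fresh libraries weigh as much as abundant ones. The summed level of the 36 genes had no such order, with 3317 to 3840 CPM in stimulated and 2687 to 3660 CPM in young fresh libraries.

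**Figure D5:**
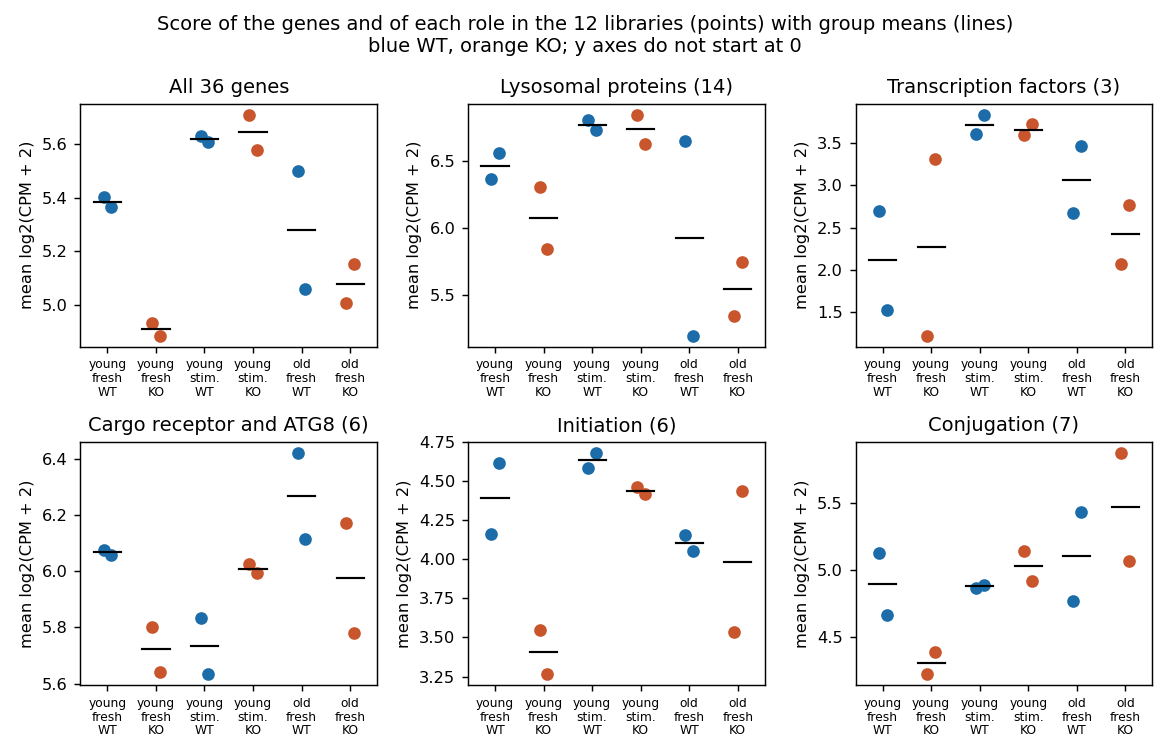
Mean log2(CPM + 2) over all 36 genes and over each role (panels; number of genes in brackets) in each library (points; blue WT, orange KO) with group means (lines), on axes that do not start at 0. The stimulated libraries, at 5.58 to 5.71, lie above the fresh ones in the first panel.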

How the data were processed

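RNA of 12 libraries of sorted HSCs was measured with QuantSeq 3′ FWD tags, per the labels' protocols. The authors deposited raw read counts per gene symbol, for which the submitters' processing notes name HISAT2 2.2.1, HTSeq 0.9.1, DESeq2 1.34.0 and the build mm10. Of the annotation, strand setting and trimming, each is not given in the sources used here. Genes on the opposite strand lie in the last 1000 bases of 7 members (Lamp1, Ctsa, Ctsb, Ctsz, Grn, Map1lc3b and Becn1), whose reads cannot then be told apart.

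In R 4.3.3, edgeR 4.0.16 (TMM, filterByExpr with a minimum count of 10 and total of 15, robust quasi-likelihood) was fitted to the 8 young, the 8 fresh and the 4 stimulated libraries, with 10786, 10680 and 10494 genes. The genes left out held 0.484% or less of the counts of any library. CPM used TMM over 12 libraries. Each SE was derived from the test, as the size of the log2 difference divided by the square root of the quasi-likelihood F statistic. Alternatives were RLE, no filter, DESeq2 1.42.0, limma 3.58.1 voom, 12 libraries in one fit, a replicate block and leaving out each library.

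The members, the 6 pathway lists and the tests were chosen with earlier results of these data known. Named in full were called members, otherwise the 3 of smallest p per comparison with a mean of at least 5 CPM, plus Tfeb, Tfe3, Mitf and Sqstm1. For the interaction of age and genotype these members are given by name only. Depth per group is given in the report. No replicate pair was identical.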

Additional observations from a re-analysis of the deposited data

How the results depend on the processing

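With stimulation, 3 members higher and 0 lower became 5 and 4 by DESeq2, 1 and 1 in the fit of 12 libraries, 3 and 1 without a filter, and 2 and 1 by limma voom. Leaving out 1 library gave 0 to 5 higher and 0 to 2 lower, in fits that called 60 to 1648 genes in all, and Sqstm1, at log2 -0.20, ranged from -0.35 without young fresh KO replicate 3 to 0.026 without replicate 4. Npc2 kept its call under all 6 settings that keep every library, Grn lost it in the fit of 12 libraries (adjusted p = 0.0843), and Hexa lost it there (0.336), under RLE scaling (0.055) and by limma voom (0.13). Among all genes, DESeq2 called 1683 with stimulation, where edgeR called 389, and limma voom 712. With age, 0 members higher and 0 lower became 2 and 1 without a filter, 1 and 1 by DESeq2, 1 and 1 in the fit of 12 libraries, and 0 to 2 and 0 to 1 with 1 library left out. DESeq2 called 1 lower in young fresh KO and 1 higher in the interaction of stimulation and genotype. In stimulated KO the 1 member higher became 0 by DESeq2, 0 by limma voom and 0 in the fit of 12 libraries, and 0 to 2 with 1 library left out. The score difference of 0.48 became 0.69 with an offset of 0.5 CPM and 0.27 with 10 CPM. Deviations of same-numbered libraries correlated at -0.0142 to 0.013 and gave no sign of pairing. With 2 libraries a group and the wide spread of fresh replicates, this could not show whether the replicate numbers pair the samples. With a replicate block 1 member was lower with stimulation (Gabarapl1, log2 -0.96) and 1 higher with age (Map1lc3b, log2 1.18), and both interactions stayed at 0 members. No block could be fitted within the genotype comparisons, where no number is shared. The cause of these shifts was not tested. With 2 libraries a group and 0 counts common in fresh cells, a low gene could not be followed there.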

Other observations

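The rest of the pathway was read from 6 lists of 119 further genes, 117 of them in the files. With stimulation, 4 of the 112 tested were called lower (3.57%, against 1.73% of all genes) and 2 higher (1.79%, against 1.87%). Laptm4a, a lysosomal transmembrane protein gene, had 1360, 1700, 1520 and 1841 CPM in young fresh and 629, 570, 730 and 774 CPM in stimulated libraries, which did not overlap (log2 -1.26 ± 0.12, edgeR adjusted p = 0.00201), and it was called in all 8 fits that leave out 1 library. Vmp1, an endoplasmic reticulum protein needed to form autophagosomes, had 194, 179, 191 and 186 CPM fresh and 86.2, 86.8, 103 and 108 CPM stimulated (log2 -0.97 ± 0.17, edgeR adjusted p = 0.0227). M6pr, a receptor that carries hydrolases to lysosomes (log2 -1.10), and Ctsc, cathepsin C (log2 -1.06), were also lower, at edgeR adjusted p = 0.0366 and 0.0444. Atp6ap2, an accessory subunit of the lysosomal proton pump, was higher at 567, 437, 450 and 391 CPM against 218, 266, 248 and 190 CPM (log2 1.00 ± 0.16, edgeR adjusted p = 0.0194), as was Laptm5 (log2 0.51, 0.0432). Of the 15 V-ATPase genes tested, 1 was called higher and 0 lower, with a median log2 difference of 0.47 against 0.21 over all genes. Of these 15, 3 had an unadjusted p under 0.05, each upward (20%, against 23.7% of all genes in either direction). The other lists had lower medians, at 0.15 for further lysosomal hydrolases and membrane proteins and 0.11 for nutrient sensing by mTORC1. Further autophagy core genes had -0.03, selective autophagy receptors and mitophagy 0.17, and autophagosome-lysosome fusion -0.30, each list below the 0.21 over all genes. As for the 3 members, Vmp1, M6pr, Ctsc, Atp6ap2 and Laptm5 lost the call when any 1 stimulated library was left out, at adjusted p of 0.173 to 0.203, 0.135 to 0.202, 0.201 to 0.254, 0.0565 to 0.12 and 0.22 to 0.257. Ctsc also lost it without young fresh WT replicate 1 (0.0567), and M6pr (0.0551) and Laptm5 (0.0566) without replicate 2. Laptm5 lost it further under RLE scaling (0.0609), in the fit of 12 libraries (0.0808), by limma voom (0.0515) and with a replicate block (0.0538).

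With age, 1 of the 111 tested was called higher (0.901%, against 1.82% of all genes) and 3 lower (2.7%, against 1.06%). Rraga, which encodes the RagA GTPase that brings mTORC1 to the lysosome, had 869, 523, 420 and 783 CPM in young fresh and 1872, 2188, 1634 and 1736 CPM in old libraries, without overlap (log2 1.51 ± 0.21, edgeR adjusted p = 8.18e-05). It was called under every alternative and with any 1 library left out. Rb1cc1, the FIP200 subunit of the ULK1 complex, had 268, 304, 127 and 440 CPM in young and 91.1, 106, 85.3 and 73.9 CPM in old libraries (log2 -1.69 ± 0.36, edgeR adjusted p = 0.00873), but it stood at 0.0763 without young fresh KO replicate 4. M6pr (log2 -1.18, edgeR adjusted p = 0.0265) and the proton pump subunit gene Atp6v1a (log2 -1.40, 0.0337) were lower as well. M6pr lost the call without young fresh WT replicate 2 (0.12) or old KO replicate 3 (0.1). Atp6v1a lost it without young fresh KO replicate 4 (0.106), old WT replicate 1 (0.107), old KO replicate 3 (0.0531) or old KO replicate 4 (0.0707). By limma voom M6pr (0.061) and Atp6v1a (0.0625) were not called. Old libraries were deeper than young ones, and the part of depth was not tested. None of these genes was called between genotypes in stimulated cells.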
